A study of Setaria viridis with 11 samples.

Results

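The report covers 9 transcripts of the C4 cycle and of the chloroplast phosphate translocators in leaves of Setaria viridis, a small C4 grass. They were taken by a list of identifiers that sets no measured threshold, but that was drawn up with earlier results of these data known, from the 19 transcripts that the annotation used by the study places in the C4 bin of photosynthesis, and they are 9 of the 40599 transcripts counted. They comprise 1 carbonic anhydrase (CA, Si003882m, locus Seita.5G240000), 1 phosphoenolpyruvate carboxylase (PEPC, Si005789m, Seita.4G175200), 3 NADP-malic enzymes (NADP-ME; Si000645m, Seita.5G134300, Si021600m, Seita.3G109300, and Si000808m, Seita.5G314300), 3 phosphoenolpyruvate (PEP)/phosphate translocators (PPT; Si013874m, Seita.6G118800, Si022164m, Seita.3G102000, and Si030085m, Seita.2G167400) and 1 triose phosphate/phosphate translocator (TPT, Si024795m, Seita.3G084000). Other enzymes of the cycle, such as pyruvate phosphate dikinase and NADP-malate dehydrogenase, were not analysed here.

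RNA-seq was done on 11 wild-type plants of the accession A10, each a library of its own. For 6 plants the chamber was set to 42 °C in the light period and 32 °C in the dark for 2 weeks, after 2 weeks under control conditions. The 5 control plants stayed at settings of 28 °C and 20 °C. All leaves were harvested at day 28, and each condition had its own growth chamber, so chamber and temperature cannot be told apart.

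In C4 grasses the work is divided between mesophyll cells and the bundle sheath cells around the veins. CA in the mesophyll turns CO2 into bicarbonate, and PEPC joins the bicarbonate to PEP to give a C4 acid. In plants of the NADP-ME type, to which S. viridis belongs, malate moves to the bundle sheath chloroplasts, where NADP-ME releases CO2 next to Rubisco. The pyruvate left over is made into PEP again in mesophyll chloroplasts, and PPT carries PEP out of the chloroplast in exchange for phosphate. TPT exchanges triose phosphates and 3-phosphoglycerate for phosphate across the same membrane. These families also hold members outside the C4 cycle, which serve roots, young tissues or general metabolism.

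Totals were 34731849 to 47441261 counts in heat-stressed plants and 34362084 to 54011056 in control plants. The plastid gene psbA alone took 46.1% to 48.5% of the counts in heat-stressed plants and 61.8% to 69.6% in control plants. Levels are therefore CPM, counts relative to the library size, scaled with TMM factors, which bring the bulk of transcripts in all plants to 1 scale. Over all tested transcripts the median log2 fold change was 0.02 with these factors and 1.07 with library size only. Control plant 2 stood apart in its alignments, of which 59.1% had several places in the genome and were not counted, against 20.2% to 30.8% in heat-stressed plants and 15.4% to 34.6% in the other control plants. CPM are not corrected for transcript length, so they were compared between plants and not as levels between genes. Scarce and main, as used below, therefore refer to counts and not to molecules. Per the methods of the study, the RNA came from pooled midsections of fully expanded leaves. Their cell types were not separated, so fewer cells of a type and less RNA per cell cannot be told apart.

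Changes under heat stress went in both directions among the 9 transcripts. The most counted form of CA, PEPC and PPT, and the second PPT, fell to 41.3% to 54.2% of the mean control level, whereas the scarce NADP-ME forms Si021600m and Si000808m and the scarce TPT rose to 3.76 to 6.41 times that level. All 9 passed the filter on low counts. NADP-ME Si000808m and TPT Si024795m, at 14 and 5 counts or fewer in a control plant, could pass it only through the heat-stressed plants. Their being tested thus already favoured a rise. At an adjusted p under 0.05 (edgeR's quasi-likelihood test, Benjamini-Hochberg over all 18065 transcripts tested), 4 fell, 3 rose, and 2 (NADP-ME Si000645m and PPT Si030085m) did not pass. When 10 counts were required in every plant, 7 of the 9 were left, and 1 of them was higher. Over all transcripts tested, 63.1% were called in either direction, 30.9% lower and 32.2% higher, so being called is by itself common in these data. The median log2 fold change was -0.76 over the 9 transcripts, -0.48 over the 15 transcripts of the C4 bin that could be tested and 0.02 over all. Under library size only, none of the 9 was lower and 4 were higher. That scaling moved the whole distribution up by about as much as the main forms had been lower.

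**Figure D1:**
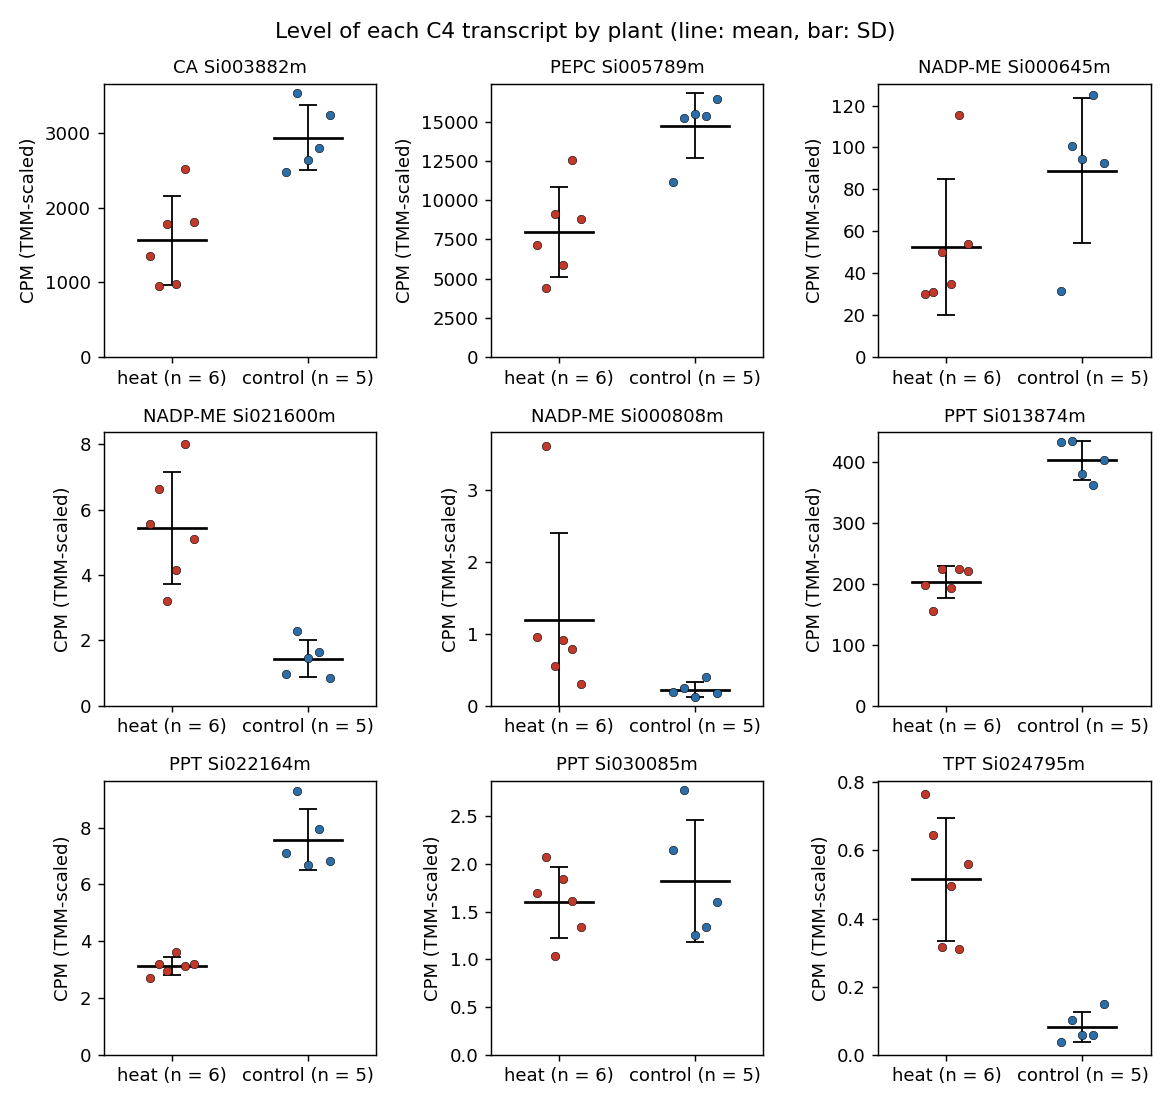
TMM-scaled CPM of the 9 transcripts (vertical axes from 0, a scale for each panel) in 6 heat-stressed plants (red, left) and 5 control plants (blue, right), with a point for each plant, a line for the mean and a bar for the SD. No heat-stressed plant reaches a control plant in PPT Si013874m and Si022164m, no control plant reaches a heat-stressed plant in NADP-ME Si021600m and TPT Si024795m, and the groups overlap in the other 5 panels.

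CA Si003882m encodes the enzyme that supplies bicarbonate to PEPC. It had 1359, 945, 1774, 975, 2515 and 1811 CPM in heat-stressed plants 1 to 6, against 2484, 3532, 2642, 2798 and 3239 CPM in control plants 1 to 5. Only heat-stressed plant 5 overlapped with the controls, and it lay just above the lowest of them. The means were 1563 ± 597 CPM under heat and 2939 ± 435 CPM under control conditions (SD, n = 6 and 5), a log2 fold change of -0.91 ± 0.23 (SE, edgeR adjusted p = 0.0036).

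PEPC Si005789m, annotated as nearly identical to the C4 PEPC of maize, had by far the most counts of the 9 transcripts, 287478 to 645546 in a heat-stressed plant and 295656 to 555663 in a control plant. It had 7152, 4416, 9115, 5889, 12566 and 8768 CPM in heat-stressed plants 1 to 6, and 11132, 15247, 15488, 15343 and 16479 CPM in control plants 1 to 5. The overlap again came from 1 plant of each condition, heat-stressed plant 5 being above control plant 1. Its log2 fold change of -0.88 ± 0.24 (SE, edgeR adjusted p = 0.0051) was close to that of CA.

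NADP-ME was the family whose members parted most. Si000645m, a chloroplast form and the most counted of the family, had 30.1, 31.1, 49.9, 34.7, 115.5 and 53.7 CPM in heat-stressed plants 1 to 6, against 31.4, 100.6, 94.7, 125.2 and 92.6 CPM in control plants 1 to 5. Each condition had 1 plant at the level of the other, heat-stressed plant 5 at 115.5 CPM and control plant 1 at 31.4 CPM. The log2 fold change was -0.76 ± 0.37 (SE) and did not pass the threshold (edgeR adjusted p = 0.087). It was -1.13 without heat-stressed plant 5 (edgeR adjusted p = 0.0048) and -0.98 without control plant 1 (edgeR adjusted p = 0.018), so the call rested on these 2 plants.

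Si021600m, a further NADP-ME annotated as chloroplastic, went the other way. It had 5.56, 6.62, 3.21, 4.16, 8.00 and 5.09 CPM in heat-stressed plants 1 to 6, against 0.98, 2.27, 1.46, 1.65 and 0.86 CPM in control plants 1 to 5. Every heat-stressed plant lay above every control plant, and the log2 fold change was 1.93 ± 0.28 (SE, edgeR adjusted p = 3.2e-05). In counts this was 193 to 431 under heat and 26 to 58 under control conditions.

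Si000808m, an NADP-ME without a chloroplast annotation, had 64, 236, 33, 46, 41 and 16 counts in heat-stressed plants 1 to 6, and 5, 5, 4, 14 and 6 counts in control plants 1 to 5. Heat-stressed plant 2, at 3.62 CPM, stood far above the other 5 heat-stressed plants at 0.31 to 0.96 CPM, and heat-stressed plant 6 lay below the highest control plant at 0.40 CPM. The log2 fold change was 2.39 ± 0.63 (SE, edgeR adjusted p = 0.0045), and 1.66 without heat-stressed plant 2 (edgeR adjusted p = 0.0023). Summed over plants, 436 counts under heat and 34 counts under control conditions gave a rate ratio of 5.55 at TMM-scaled depth, with an exact 95% interval of 3.91 to 8.12 that covers counting error only.

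The fourth NADP-ME of the bin, Si000774m, was not called, with 44 to 112 counts under heat, 12 to 42 under control conditions and a log2 fold change of 0.28 ± 0.33 (SE, edgeR adjusted p = 0.48). Within the family, Si000645m thus made up 85.1% ± 7.3 of the counts in heat-stressed plants and 96.8% ± 1.2 in control plants (SD, n = 6 and 5). Si021600m held 10.2% ± 4.2 under heat and 1.77% ± 0.81 under control conditions. The range of Si021600m was 5.88% to 15.6% in heat-stressed plants and 0.91% to 2.96% in control plants, with no overlap. Si000808m reached 8.53% in heat-stressed plant 2 and at most 2.57% in the other plants. These are shares of counts, not of molecules, because no transcript length entered them.

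Among the translocators, PPT Si013874m was the form with most counts and varied little among plants. It had 198, 156, 225, 194, 224 and 222 CPM in heat-stressed plants 1 to 6, against 433, 435, 381, 363 and 404 CPM in control plants 1 to 5. The highest heat-stressed plant was well below the lowest control plant, with a log2 fold change of -0.99 ± 0.11 (SE, edgeR adjusted p = 3.1e-06). PPT Si022164m, about as steady, had 2.69, 3.18, 2.96, 3.63, 3.13 and 3.19 CPM in heat-stressed plants 1 to 6, against 7.12, 9.30, 6.68, 7.96 and 6.82 CPM in control plants 1 to 5. These groups did not overlap either, and its log2 fold change of -1.27 ± 0.12 (SE, edgeR adjusted p = 5.7e-07) was the lowest of the 9.

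PPT Si030085m had 1.70, 2.07, 1.03, 1.84, 1.62 and 1.33 CPM in heat-stressed plants 1 to 6, and 2.15, 2.78, 1.25, 1.34 and 1.60 CPM in control plants 1 to 5. The 2 ranges lay across each other, and the log2 fold change of -0.17 ± 0.23 (SE) was not called (edgeR adjusted p = 0.56). It was 0.02 without control plant 2, 0.25 with the total without psbA as library size, and 0.93 with library size only (edgeR adjusted p = 0.0013), so no direction is given for it.

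TPT Si024795m had the fewest counts of the 9 when summed over plants. There were 51, 42, 19, 25, 16 and 29 counts in heat-stressed plants 1 to 6, against 1, 2, 2, 2 and 5 counts in control plants 1 to 5. All heat-stressed plants were above all control plants, at 0.31 to 0.77 CPM under heat and 0.038 to 0.15 CPM under control conditions. The log2 fold change was 2.65 ± 0.41 (SE, edgeR adjusted p = 6.0e-05). The 182 counts under heat and 12 under control conditions correspond to a rate ratio of 6.56 (exact 95% interval 3.67 to 12.9, counting error only). The other TPT of the bin, Si001693m, had no count in any of the 11 plants. The study listed TPT among the C4 transporters with lower transcript levels under heat. Which transcript it meant was not checked here, so the rise of the scarce Si024795m is not that of TPT in the leaf as a whole.

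In all, 2 of the 9 transcripts were lower and 2 were higher without overlap between the groups, against 21.4% lower and 23.5% higher among all transcripts tested. Of the 2 higher ones, TPT Si024795m had passed the filter only through its heat-stressed plants. Of the 10 further transcripts of the C4 bin, 6 could be tested, and 3 of these fell, each without overlap. The mitochondrial NAD-malic enzymes, which release CO2 in C4 plants of another type, varied little among plants. NAD-ME Si034747m averaged 20.1 ± 1.3 CPM under heat and 29.7 ± 2.7 CPM under control conditions (SD, n = 6 and 5), a log2 fold change of -0.57 ± 0.08 (SE, edgeR adjusted p = 4.1e-05). NAD-ME Si029215m averaged 25.9 ± 1.4 CPM under heat and 36.2 ± 3.1 CPM under control conditions, a log2 fold change of -0.48 ± 0.08 (SE, edgeR adjusted p = 1.0e-04). The third that fell was the glucose 6-phosphate/phosphate translocator Si013907m, which brings hexose phosphate into plastids, at 3.67 ± 0.39 CPM under heat and 5.34 ± 0.55 CPM under control conditions (log2 fold change -0.54 ± 0.11, SE, edgeR adjusted p = 8.5e-04). With library size only, all 3 were higher under heat, at log2 fold changes of 0.47, 0.56 and 0.51. The other 3 tested, CA Si030616m, PEPC Si016228m and NADP-ME Si000774m, were not called. The remaining transcripts (CA Si002140m, PEPC Si004557m, the glucose 6-phosphate/phosphate translocator Si030075m and TPT Si001693m) had 4 counts or fewer in every plant.

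**Figure D2:**
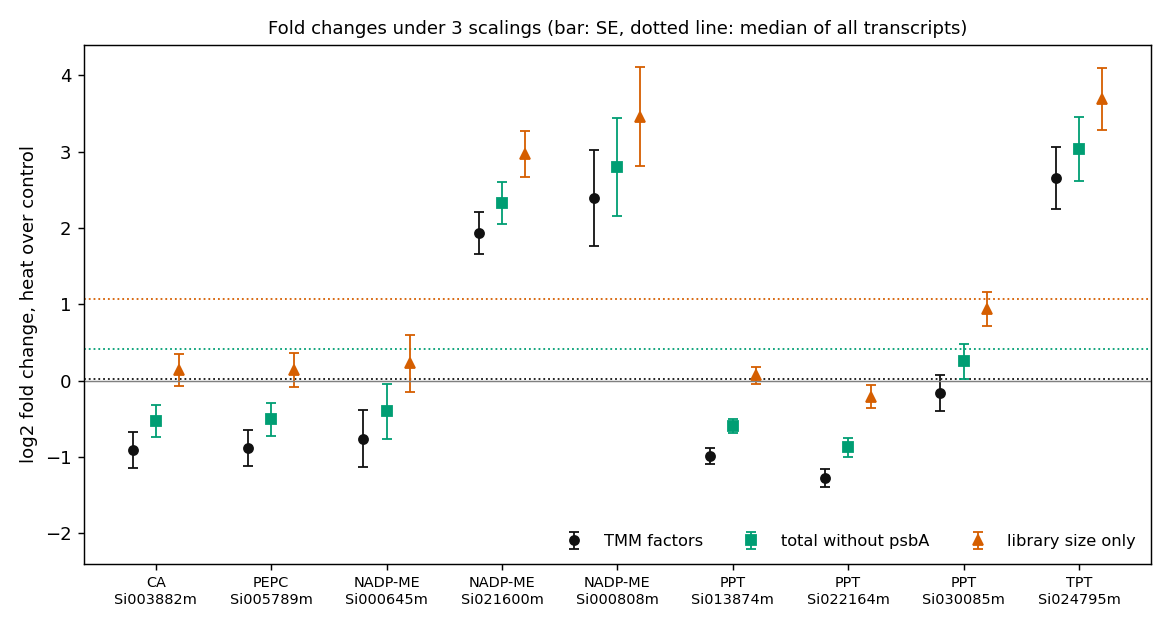
Log2 fold change of the 9 transcripts, heat over control (points, with SE bars), with TMM factors (black circles), with the total without psbA as library size (green squares) and with library size only (orange triangles), and the median of all tested transcripts under each scaling (dotted lines at 0.02, 0.41 and 1.07). All points of a transcript move up together with the dotted lines, as such a change of scaling does by construction, and CA, PEPC and PPT Si013874m are below 0 with TMM factors and just above it with library size only.

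A change of scaling moves all transcripts and their median nearly alike, so the distance of a transcript from the median is set almost wholly by construction and is given as a description. PEPC lay at -0.91 relative to the median with TMM factors and at -0.93 with library size only. CA lay at -0.93 and -0.94, and PPT Si013874m at -1.01 and -1.0, in the same order of scalings. With the total without psbA as library size, the log2 fold change was -0.51 for PEPC (edgeR adjusted p = 0.049), -0.53 for CA (edgeR adjusted p = 0.036) and -0.59 for PPT Si013874m. The rises of NADP-ME Si021600m, NADP-ME Si000808m and TPT Si024795m held under all 3 scalings.

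Ratios of 2 transcripts within a plant need no scaling between plants, so they show directly whether members of a family moved apart. Such log2 ratios of a scarce form to the most counted form were compared by exact permutation tests (2-sided, all splits into 6 and 5 plants), for which 0.0022 is the smallest p, with adjustment over the 11 ratios computed. Relative to NADP-ME Si000645m, Si021600m was higher in heat-stressed plants by 2.72 on the log2 scale, with -3.15 ± 0.72 under heat and -5.88 ± 0.68 under control conditions (SD, n = 6 and 5, exact p = 0.0022, adjusted p = 0.012). All 6 heat-stressed plants exceeded all 5 control plants in this ratio.

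The ratio of Si000808m to Si000645m was higher by 2.76 (exact p = 0.011, adjusted p = 0.024) and that of Si000774m to Si000645m by 1.08 (exact p = 0.0065, adjusted p = 0.018), both with overlap between the groups. The first was 2.23 without heat-stressed plant 2 and 2.14 with a pseudocount of 5 (adjusted p = 0.048). Both missed the threshold without control plant 3, 4 or 5 (adjusted p = 0.052 to 0.063). All 3 scarcer forms of the family thus took a larger share of its counts under heat on average. The lower level of Si000645m by itself raises all 3 ratios, and Si000774m was not called on its own. How many of all transcripts would rise as much against Si000645m was not computed.

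In PEPC and CA, 1 scarce form each was higher relative to the main form. Both main forms fell, which by itself raises such a ratio, and neither scarce form was called on its own. How many of all transcripts would rise as much against these main forms was not computed. PEPC Si016228m, the second PEPC in counts, had a log2 fold change of 0.17 ± 0.11 (SE, edgeR adjusted p = 0.20), yet relative to Si005789m its log2 ratio was -7.58 ± 0.69 under heat and -8.70 ± 0.13 under control conditions (SD, n = 6 and 5), a difference of 1.11 without overlap (exact p = 0.0065, adjusted p = 0.018; 0.052 without control plant 3, 4 or 5). Its share of the PEPC counts was 0.31% to 1.14% in heat-stressed plants and 0.21% to 0.27% in control plants. The third PEPC, Si004557m, had 1 to 4 counts in every plant, and its ratio to Si005789m differed by 0.36 with overlap (exact p = 0.54, adjusted p = 0.75). CA Si030616m, annotated as a beta CA of the chloroplast, had a log2 fold change of 0.46 ± 0.25 (SE, edgeR adjusted p = 0.12). Relative to Si003882m it was higher by 1.37, again without overlap (exact p = 0.0022, adjusted p = 0.012). It held under 0.14% of the CA counts in every plant. The other CA, Si002140m at the neighbouring locus Seita.5G240100, had 0 or 1 count in every plant, and reads that fit both loci would not have been counted. No ratio was computed for it.

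The PPT family was the one without such a shift in its main pair. Si022164m relative to Si013874m differed by -0.27 between the conditions (exact p = 0.1, adjusted p = 0.16). Si013874m held 97.7% ± 0.6 of the PPT counts under heat and 97.7% ± 0.3 under control conditions (SD, n = 6 and 5). Si030085m relative to Si013874m was higher under heat by 0.83 (exact p = 0.019, adjusted p = 0.036), by 0.75 from read pairs alone (adjusted p = 0.056) and by 2.16 from single reads alone (adjusted p = 0.012). This call was lost on leaving out any of control plants 1, 3, 4 and 5 or heat-stressed plants 1, 2, 4 and 5 (adjusted p = 0.052 to 0.087).

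The main forms of different families were also set against each other. The log2 ratio of CA Si003882m to PEPC Si005789m differed by -0.04 between heat and control (exact p = 0.71, adjusted p = 0.78), with SDs of 0.13 under heat and 0.19 under control conditions, and by -0.09 to 0.02 with any 1 plant left out. The ratio of NADP-ME Si000645m to PEPC differed by 0.15 (exact p = 0.62, adjusted p = 0.76) and that of PPT Si013874m to PEPC by -0.05 (exact p = 0.8, adjusted p = 0.8). None of these 3 differences passed the test, and among the 3 ratios the spread between plants was narrowest for CA and PEPC.

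**Figure D3:**
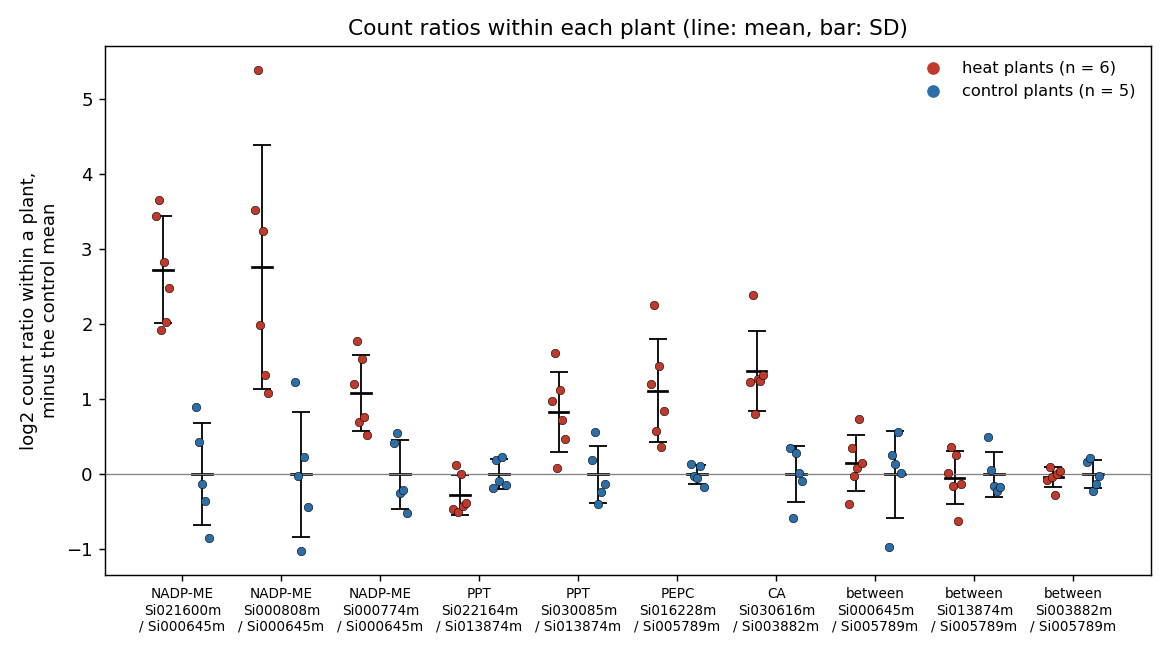
Log2 count ratios within each plant minus the mean of the control plants (vertical axis) for 7 ratios of a scarce to the most counted form of a family and 3 ratios between families, in 6 heat-stressed plants (red, left of each pair) and 5 control plants (blue), with a line for the mean and a bar for the SD. NADP-ME Si021600m, PEPC Si016228m and CA Si030616m are apart from the controls in all heat-stressed plants. In the ratios to PEPC at the right the means stay near 0 and the groups overlap, while single plants of NADP-ME Si000645m and PPT Si013874m lie further away.

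Plants under the same condition differed in their C4 transcripts. The SD of the log2 CPM of PEPC was 0.53 among heat-stressed plants and 0.22 among control plants, and that of CA was 0.55 under heat and 0.21 under control conditions. The median SD of all tested transcripts was 0.27 under heat and 0.32 under control conditions. NADP-ME Si000645m spread widely in both conditions (0.73 under heat and 0.78 under control conditions), whereas PPT Si013874m did in neither (0.20 and 0.11, in the same order). The difference in spread between conditions was not tested.

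Among heat-stressed plants, these differences were shared by the main forms. Among control plants, PPT Si013874m did not follow PEPC. In control plants 1 to 5, its log2 CPM deviated from their mean by 0.11, 0.11, -0.08, -0.15 and 0.006. For PEPC these deviations were -0.39, 0.06, 0.08, 0.07 and 0.17, and no test was run on the controls. In the 6 heat-stressed plants, CA and PEPC followed each other with r = 0.973 (exact permutation p = 0.0028, adjusted over 6 pairs 0.0083) and Spearman's rho = 0.943 (exact p = 0.017). Heat-stressed plant 5 was highest in both and plant 2 was lowest in both. Without these 2 plants r was 0.991 over the other 4. PEPC and PPT Si013874m had r = 0.917 (exact permutation p = 0.0028, adjusted p = 0.0083), rho = 0.943 (exact p = 0.017), and r = 0.960 without plants 2 and 5. With 1 plant left out, r was 0.949 to 0.994 for CA with PEPC and 0.874 to 0.976 for PEPC with PPT. Both pairs were at an adjusted p of 0.05 to 0.06, no longer under the threshold, without plant 2, 3, 4 or 6. Over 5 plants no exact permutation p can be under 0.0083, which leaves this test little room to pass. Without plant 4, CA with PEPC had r = 0.994 at an adjusted p of 0.05.

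Weaker relations were found for the other pairs. CA and NADP-ME Si000645m had r = 0.886 (exact permutation p = 0.013, adjusted p = 0.025), CA and PPT Si013874m 0.839 (exact p = 0.022, adjusted p = 0.030) and PEPC and NADP-ME Si000645m 0.872 (exact p = 0.025, adjusted p = 0.030). Their rho values were 0.829 (exact p = 0.058), 0.829 (exact p = 0.058) and 0.771 (exact p = 0.10), in the same order. Without plants 2 and 5 they gave r = 0.766, 0.929 and 0.802. NADP-ME Si000645m and PPT Si013874m did not pass (r = 0.669, exact permutation p = 0.15; rho = 0.657, exact p = 0.18; r = 0.916 without plants 1 and 5). Both transcripts of a pair came from the same library, and a scaling error of a library moves both alike. The 3 weaker relations also missed the threshold without plant 2, 3, 4 or 6, and those with NADP-ME Si000645m without plant 5 too (adjusted p = 0.05 to 0.17). With library size only, CA and PPT Si013874m had r = 0.715 (exact permutation p = 0.085).

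The scarce forms had low or negative correlations with PEPC. Across all 11 plants, with each plant taken as its deviation from the mean of its condition, the correlation with PEPC was 0.933 for CA, 0.818 for NADP-ME Si000645m and 0.687 for PPT Si013874m. It was 0.125 for NADP-ME Si021600m, -0.115 for PPT Si022164m, -0.307 for TPT Si024795m, -0.473 for PPT Si030085m and -0.609 for NADP-ME Si000808m. Of all tested transcripts, 0.23% had a correlation with PEPC at least as high as CA, 1.88% as high as NADP-ME Si000645m and 5.51% as high as PPT Si013874m. For the scarce forms, in the order above, this share was 38.1%, 57.5%, 73.4%, 85.9% and 93.5%. Most of their correlations were thus common ones among all transcripts. In single plants, control plant 1 was lowest of the controls in CA, PEPC and NADP-ME Si000645m but near the top in PPT Si013874m. Heat-stressed plant 2, lowest in CA, PEPC and PPT Si013874m, was highest in NADP-ME Si000808m, at 1.99 above the heat mean in log2 CPM. The correlation of Si000808m was not recomputed without this plant. In control plants TPT Si024795m had 1 to 5 counts and NADP-ME Si000808m 4 to 14, so counting error blurs their correlations with PEPC.

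**Figure D4:**
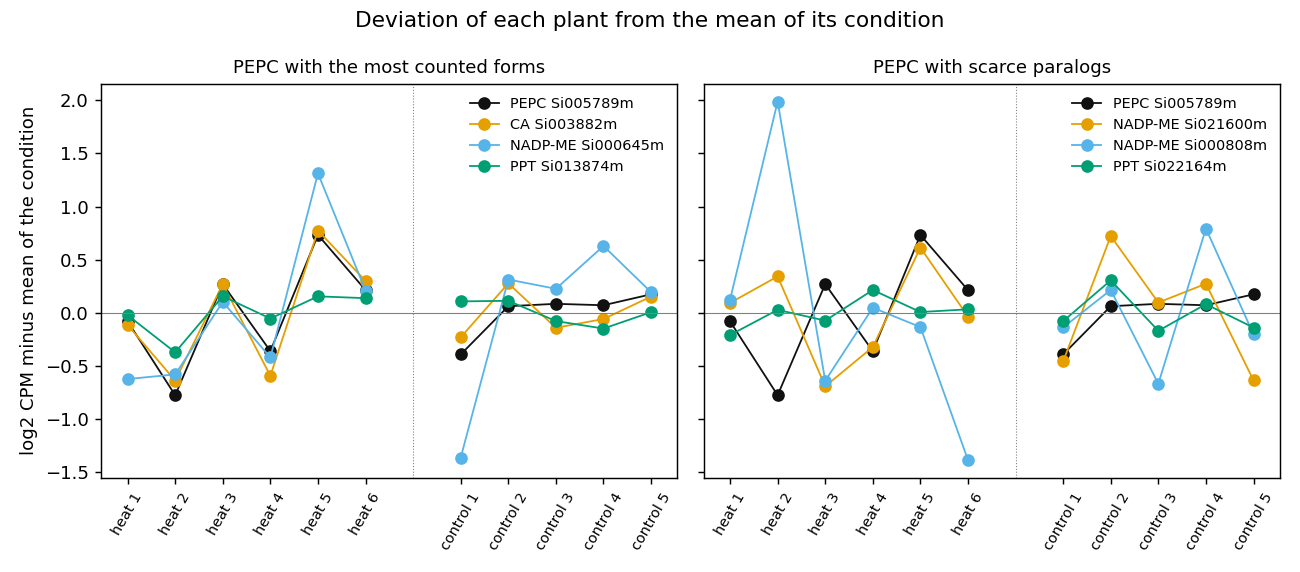
Log2 CPM of each plant minus the mean of its condition (vertical axis) for heat-stressed plants 1 to 6 (left) and control plants 1 to 5 (right) of each panel. The lines only join the points of a transcript, since plants have no order. In the left panel CA (orange), NADP-ME Si000645m (light blue) and PPT Si013874m (green) move with PEPC (black) among heat-stressed plants, high in plant 5 and low in plant 2, and in the right panel the scarce NADP-ME and PPT forms do not.

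Among the 168 tested transcripts of the other photosynthesis bins, the 5 most alike to PEPC in these deviations belonged to light harvesting, electron transport and the Calvin cycle. They were the light-harvesting antenna protein LHCB3 Si030808m (r = 0.975), the chloroplast glyceraldehyde 3-phosphate dehydrogenase GAPA-2 Si010261m (0.974), the PSBQ-like protein Si020704m (0.964), a cytochrome b6f subunit Si038837m (0.962) and an aldolase Si006745m (0.962). These are descriptions over 11 plants that share their libraries. They did not all change alike with heat. LHCB3 Si030808m had a log2 fold change of -1.22 ± 0.27 (SE, edgeR adjusted p = 0.0011), while the PSBQ-like Si020704m had 0.70 ± 0.28 (SE, edgeR adjusted p = 0.042).

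Bundle sheath transcripts were examined beside the C4 forms. Of a list of 10 (6 of Rubisco small subunit, 3 of phosphoribulokinase and the Rubisco activase Si026402m), 9 were tested. With TMM factors these 9 fell, against 30.9% lower among all transcripts tested, and their median log2 fold change was -1.30. None of the list was at 0 in every plant. The summed level of the list was 492 to 1259 CPM in heat-stressed plants and 1709 to 2412 CPM in control plants. Library size only moved the median of all tested transcripts from 0.02 to 1.07, and the list was not recomputed with it. The second Rubisco activase transcript, Si027442m, was not on the list and went the other way, with 35.7 CPM on average under heat and 0.40 CPM under control conditions (log2 fold change 6.48 ± 0.25, SE, edgeR adjusted p = 3.4e-10). For the mesophyll, CA Si003882m and PEPC Si005789m were the only markers fixed, so no marker apart from the C4 transcripts themselves was measured for it. The part of cell numbers in the lower levels of the C4 transcripts was not tested.

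Si000645m stood out in the kind of reads it was counted from. Reads left single after trimming made up 26.2% to 36.6% of its counts in heat-stressed plants and 26.7% to 48.4% in control plants, the highest value being that of control plant 1. Over all plants the share was 31.1%, against 14.3% for PEPC, 12.1% for CA and 10.9% for PPT Si013874m. Only 0.22% of the 9738 transcripts with at least 1000 counts had a higher share, and the median share was 10.9%. The log2 fold change of Si000645m was -0.68 from read pairs alone (edgeR adjusted p = 0.17) and -0.96 from single reads alone (edgeR adjusted p = 0.0027). Its level and the shares of its family therefore depend on how such reads were handled, and the cause was not tested. The counts of Si021600m, at 14.5% single reads, did not share this feature.

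**Figure D5:**
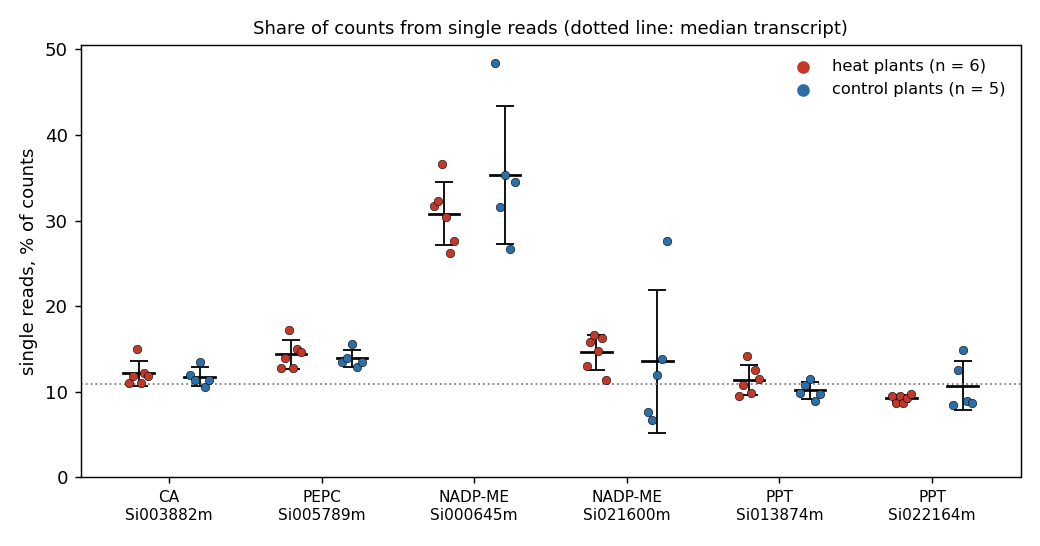
Share of the counts of 6 transcripts that came from single reads (vertical axis, percent) in 6 heat-stressed plants (red, left of each pair) and 5 control plants (blue), with a line for the mean, a bar for the SD and a dotted line at the median of 10.9% over transcripts with at least 1000 counts. NADP-ME Si000645m lies between 26.2% and 48.4% in every plant, above all values of the other transcripts but 1 of NADP-ME Si021600m (27.6%).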

How the data were processed

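Leaf RNA of 11 plants was sequenced, and per the labels and the methods of the study the authors used Trimmomatic for trimming, TopHat2 for alignment to the related S. italica (genome release v2.1) and HTSeq in union mode for counts on exons. The deposited files hold raw counts, 1 file of read pairs and 1 of single reads for each plant. The methods describe strand-specific libraries. Reads with several places or on several features were not counted, so near-identical copies may lose counts. Summary lines of the files, 42.4% to 50.5% of all lines' reads in heat-stressed and 30.3% to 67.3% in control plants, were left out.

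Both files were summed for each plant. Transcripts were filtered with filterByExpr, scaled with TMM and tested with the quasi-likelihood test of edgeR 4.0.16 (R 4.3.3) over 18065 transcripts, with Benjamini-Hochberg adjustment and a threshold of 0.05. The SE is the absolute fold change on the log2 scale over the root of F. Log2 CPM used a prior count of 2. Count ratios, with 0.5 added to each count, and correlations were tested by exact permutation (scipy 1.17.1). On simulated data with 200 of 18065 genes changed, 16.4% of 1.5-fold, 65.7% of 2-fold and 95.5% of 4-fold changes were called, and 4.84% of the calls were false. In the plants themselves, 63.1% of the transcripts tested were called. Whether these rates of recovery and of false calls hold with so many transcripts called was not tested. Alternatives were DESeq2 1.42.0, other scalings, filters, read classes and pseudocounts, and each plant left out. Named transcripts are the 9, the other 10 of the C4 bin, the 5 photosynthesis transcripts most alike to PEPC, and cell type markers. The members, lists and tests were chosen with earlier results of these data known. At these depths counting error matters only for transcripts with few counts, such as TPT Si024795m. No reference with matching identifiers was used, so no sequences, lengths or coordinates are given.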

Additional observations from a re-analysis of the deposited data

Results flagged for a closer look

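Among 52 groups of values checked (each transcript's level and each ratio in each condition), 3 held a plant far from the rest of its group, where chance alone gives about 1 in 20. Control plant 1 had 31.4 CPM of NADP-ME Si000645m, against 92.6 to 125.2 CPM in the other control plants. The same plant had 11132 CPM of PEPC Si005789m, against 15247 to 16479 CPM in the other control plants. Heat-stressed plant 2 had a log2 ratio of CA Si030616m to CA Si003882m of -9.49, above the -11.07 to -10.55 of the other heat-stressed plants.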

How the results depend on the processing

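Of 618 values recomputed for 36 results, 521 kept their direction and their side of the threshold (for counts, stayed within 1.5 times), 60 lost the threshold, 11 gained it, 18 changed sign and 8 counts moved further. With library size only, the log2 fold change was 0.14 for PEPC Si005789m, 0.13 for CA Si003882m, 0.069 for PPT Si013874m, 0.22 for NADP-ME Si000645m, 0.93 for PPT Si030085m, -0.21 for PPT Si022164m (edgeR adjusted p = 0.20), 0.51 for Si013907m, 0.47 for Si034747m and 0.56 for Si029215m. None (0) of the 9 was then lower, also at an unadjusted p under 0.05 in edgeR. DESeq2 with its own size factors gave 4 lower. In the C4 bin 0 were lower and 10 higher, against 7 and 3 with TMM factors. With the total without psbA as library size the bin had 4 lower and 5 higher, and Si030085m was at 0.25. The correlation of CA with PPT Si013874m was then 0.752, and 0.715 with library size only.

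From single reads alone, only 6 of the 9 and 11 of the bin could be tested, 1 of the 9 and 1 of the bin were higher, Si000645m was at -0.96, the ratio of Si000774m to Si000645m differed by 0.98 (adjusted p = 0.054), and the ratios to PEPC of Si000645m and Si013874m by -0.072 and 0.063, and that of Si030085m to Si013874m by 2.16 (adjusted p = 0.012). Read pairs alone gave 0.75 for Si030085m to Si013874m (adjusted p = 0.056), and a pseudocount of 5 gave 0.94 for Si000774m to Si000645m (adjusted p = 0.052). Requiring 10 counts in every plant left 7 of the 9 and 1 higher. By Spearman's rho, adjusted p was 0.05 or more for all 6 pairs, at 0.943 for CA with PEPC and PEPC with PPT, 0.829 for CA with NADP-ME and with PPT, and 0.771 for PEPC with NADP-ME. The cause of these changes was not tested, except that fewer transcripts pass the stricter filters.

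Plant numbers are shared between the conditions, but same-numbered plants deviated together with correlations of -0.023 to 0.15, so the numbers do not pair them. With plant number as a replicate block, 5 of the 9 were lower, with Si000645m at -0.85 (edgeR adjusted p = 0.042). The blocked ratio differences were 2.77 for Si021600m, 3.09 for Si000808m and 1.19 for Si000774m to Si000645m, 0.90 for Si030085m to Si013874m, 1.17 for Si016228m to Si005789m and 1.38 for Si030616m to Si003882m, each with an adjusted p of 0.098, since 32 sign flips allow no exact p under 0.0625.

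With 1 plant left out at a time, 4 to 5 of the 9 were lower and 3 higher, and log2 fold changes ran from -1.13 to -0.61 for Si000645m and from -0.28 to 0.015 for Si030085m. The ratio differences ran from 2.51 to 2.95 for Si021600m, 2.23 to 3.09 for Si000808m and 0.94 to 1.22 for Si000774m to Si000645m, from 0.68 to 0.98 for Si030085m to Si013874m, 0.88 to 1.26 for Si016228m to Si005789m, -0.093 to 0.29 for Si000645m to PEPC, -0.13 to 0.078 for Si013874m to PEPC (0.078 without control plant 1, 0.069 without heat-stressed plant 5) and -0.093 to 0.017 for CA to PEPC (0.0039 without control plant 1, 0.01 without heat-stressed plant 4). The correlations ran from 0.949 to 0.994 for CA with PEPC, 0.818 to 0.934 for CA with Si000645m, 0.826 to 0.914 for CA with PPT, 0.785 to 0.928 for PEPC with Si000645m and 0.874 to 0.976 for PEPC with PPT. Each of these 5 lost the threshold on leaving out some of the plants, where 5 plants allow no exact permutation p under 0.0083. Depth limits TPT Si024795m and NADP-ME Si000808m most, at 5 and 14 counts or fewer in a control plant.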
